A study of Mus musculus with 6 samples.

Results

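The levels of 37 genes that detect double-stranded RNA or belong to the interferon response, out of 55421 genes in the count table, were compared between normal and DM1 myoblasts. The genes were chosen by name as textbook members of the pathway, with earlier results of these data known. They fall into 9 RNA sensors, 4 adaptor and RNA-modifying genes, 4 interferon regulatory factors, and 20 interferon-induced genes. All 37 were found in the table by gene symbol. C2C12 is an immortalised mouse myoblast line that fuses into myotubes in low serum. The cells of both groups had been stably transfected with a GFP plasmid and selected with G418. The plasmid carried 5 CTG repeats downstream of GFP in the CUG5 cells (normal group) and 200 CTG repeats in the CUG200 cells (DM1 group, a model of myotonic dystrophy type 1). Total RNA was sequenced at differentiation day 4 in 3 libraries of each group. The sources do not say whether the 3 libraries came from separate transfections, so the p-values measure the spread between these libraries only.

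Double-stranded RNA in the cytoplasm is detected by the helicases RIG-I and MDA5, which signal through MAVS on mitochondria, and by the kinase PKR, which stops translation. IRF3 and IRF7 then switch on the genes of type I interferons, which act through their receptor and a complex with IRF9 on interferon-stimulated response elements (ISREs) in the promoters of many genes. Many of the sensors are themselves induced by interferon. Expanded CUG RNA folds into hairpins with a double-stranded stem, which the study places in cell nuclei. Whether the sensors met this RNA was not tested. The comparison asked whether the sensors and the interferon-induced genes differed between CUG200 and CUG5 cells, and whether both sets moved in the same way.

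Promoter sequences are given first for 4 members, because each holds the ISRE core and yet their RNA levels differed between the groups in 3 ways. *Ddx58* and *Isg15* were higher in the DM1 group, *Ifit1* was lower, and *Eif2ak2* did not pass the test. The windows are from RefSeq on GRCm38.p6, run from 250 bases before the annotated start to 50 bases after it, and are written 5′ to 3′ on the strand of the gene. Capitals mark each match to GAAANNGAAA, in which N is any base, on either strand.
*Ddx58*, chr4:40239776-40240075, minus strand: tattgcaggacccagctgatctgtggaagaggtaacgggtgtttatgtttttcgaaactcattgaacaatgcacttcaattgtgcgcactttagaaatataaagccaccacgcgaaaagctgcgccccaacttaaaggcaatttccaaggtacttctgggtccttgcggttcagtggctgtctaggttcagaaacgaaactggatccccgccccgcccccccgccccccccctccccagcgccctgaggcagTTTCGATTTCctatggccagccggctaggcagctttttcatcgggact
*Isg15*, chr4:156200769-156201068, minus strand: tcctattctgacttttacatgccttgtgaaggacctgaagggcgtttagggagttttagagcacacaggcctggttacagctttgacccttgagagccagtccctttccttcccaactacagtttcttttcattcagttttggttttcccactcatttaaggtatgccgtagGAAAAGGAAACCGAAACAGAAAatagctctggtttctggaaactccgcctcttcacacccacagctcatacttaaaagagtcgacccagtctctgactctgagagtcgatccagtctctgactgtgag
*Ifit1*, chr19:34640639-34640938, plus strand: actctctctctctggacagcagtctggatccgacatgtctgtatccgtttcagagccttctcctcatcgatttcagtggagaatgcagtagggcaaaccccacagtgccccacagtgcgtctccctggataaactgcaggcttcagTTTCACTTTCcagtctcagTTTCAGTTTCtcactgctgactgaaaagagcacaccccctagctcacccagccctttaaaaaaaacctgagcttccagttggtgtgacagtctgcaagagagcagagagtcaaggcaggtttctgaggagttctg
*Eif2ak2*, chr17:78882523-78882822, minus strand: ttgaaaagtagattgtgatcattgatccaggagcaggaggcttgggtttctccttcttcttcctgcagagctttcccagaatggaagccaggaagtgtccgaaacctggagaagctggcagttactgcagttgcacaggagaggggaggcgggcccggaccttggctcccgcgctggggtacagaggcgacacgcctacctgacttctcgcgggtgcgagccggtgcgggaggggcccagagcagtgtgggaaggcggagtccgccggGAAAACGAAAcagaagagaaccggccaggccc

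The match in *Ddx58* starts at base 253 of the window, within the 50 bases after the start, and that in *Eif2ak2* at base 269. *Isg15* has 3 matches that overlap each other from base 173 on, and *Ifit1* has 2 separate matches at bases 147 and 166 on the opposite strand. RefSeq windows were matched by symbol for 29 of the 37 members, which had 35 windows in all. The core was found in 14 of the 35 windows (40.0%), each of a different gene, and in 3.44% of all 32851 promoter windows of the mouse. Of these 14 genes, 2 were called higher, 1 was called lower, 10 did not pass the test, and 1 was not tested, where 15.9% of all tested genes were called. The windows of *Ifi44* and *Trim25*, which were both lower in the DM1 group, hold no match. The shorter gamma-activated site TTCNNNGAA, which reads the same on both strands, was found in 7 of the 35 windows (20.0%) and in 8.3% of all windows, and it overlapped the ISRE core in 1. *Dhx58*, *Ifi27*, *Zbp1*, *Oas2*, *Mx1*, *Mx2*, *Usp18*, and *Parp14* had no entry. A match is a description of the letters and not a measured binding site.

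The libraries held 61707889 to 80957325 counts. A count stands for 75 aligned bases, and about 4 counts make up 1 sequenced fragment. Mitochondrial genes took 9.04% to 12.6% of the counts in CUG5 and 8.90% to 13.5% in the DM1 libraries. Of 8 skeletal muscle markers, 7 were lower in the DM1 group, and their summed level was 8503 to 10020 TPM (transcript abundance scaled for length and library size) in the normal libraries but 4327 to 6485 TPM in the DM1 libraries. Of 8 macrophage markers, *Ptprc*, *Adgre1*, and *Tyrobp* had no counts in any library, none of the 3 tested passed edgeR's test (1 at an unadjusted p under 0.05, 0 with DESeq2), and the summed level was 11.9 to 15.5 TPM against 13.8 to 18.1 TPM. Of 8 lymphocyte and dendritic cell markers, 5 had no counts, and the sum was at most 0.527 TPM in any library. Among 5 endothelial markers only *Tek*, a receptor kinase, was tested and it was lower, with 569 to 698 counts against 280 to 375 counts. Of the 4 epithelial markers, *Epcam* had no counts, and the others had at most 96 counts in any library. Their summed level was 0.436 to 0.612 TPM in the normal libraries and 0.326 to 0.808 TPM in the DM1 libraries. Only 1 epithelial marker was tested, and it did not pass (log2 fold change of -0.26, adjusted p = 0.567, edgeR). In RNA from whole cultures, fewer cells of a type and less RNA per cell cannot be told apart, and the part of the muscle marker difference in the results below was not tested.

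Members were tested with edgeR's quasi-likelihood test on all genes together, and a gene was called at a Benjamini-Hochberg adjusted p-value under 0.05. Of the 37 members, 35 had enough counts to be tested. Of these, 7 were called (20.0%), against 15.9% of all 19005 genes tested. *Ddx58*, *Zbp1*, *Ifi27*, and *Isg15* were upregulated in the DM1 group, 4 members against a background of 7.13%. *Ifit1*, *Ifi44*, and *Trim25* were downregulated, 3 members against a background of 8.73%, and *Ifi44* entered the test only through its counts in the normal group. The calls thus split between the directions, and the share of members called was near that of all genes. The 3 members *Zbp1*, *Ifit1*, and *Ifi44* also passed the study's cutoff of an absolute log2 fold change over 1, which 2.18% of all genes passed. Only *Zbp1* and *Ifit1* passed it with DESeq2, with at least 10 counts in every library, and with counts divided by 4, where *Ifi44* had no adjusted p. The values of the groups did not overlap for 16 of the 35 members, against 37.2% of all genes. The median log2 fold change was -0.14 over the tested members and 0.02 over all genes. The counts of calls depended on the libraries and on the values used. Without the normal library 1, 2, or 3 or the DM1 library 2, only 2 members were called higher, *Ddx58* and *Zbp1*, and limma-trend on log2(TPM + 1) called 0 higher and 1 lower, *Ifit1*. The share of all genes called was also smaller in these fits, at 6.59%, 7.25%, 5.18%, 5.91%, and 6.54%.

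**Figure D1:**
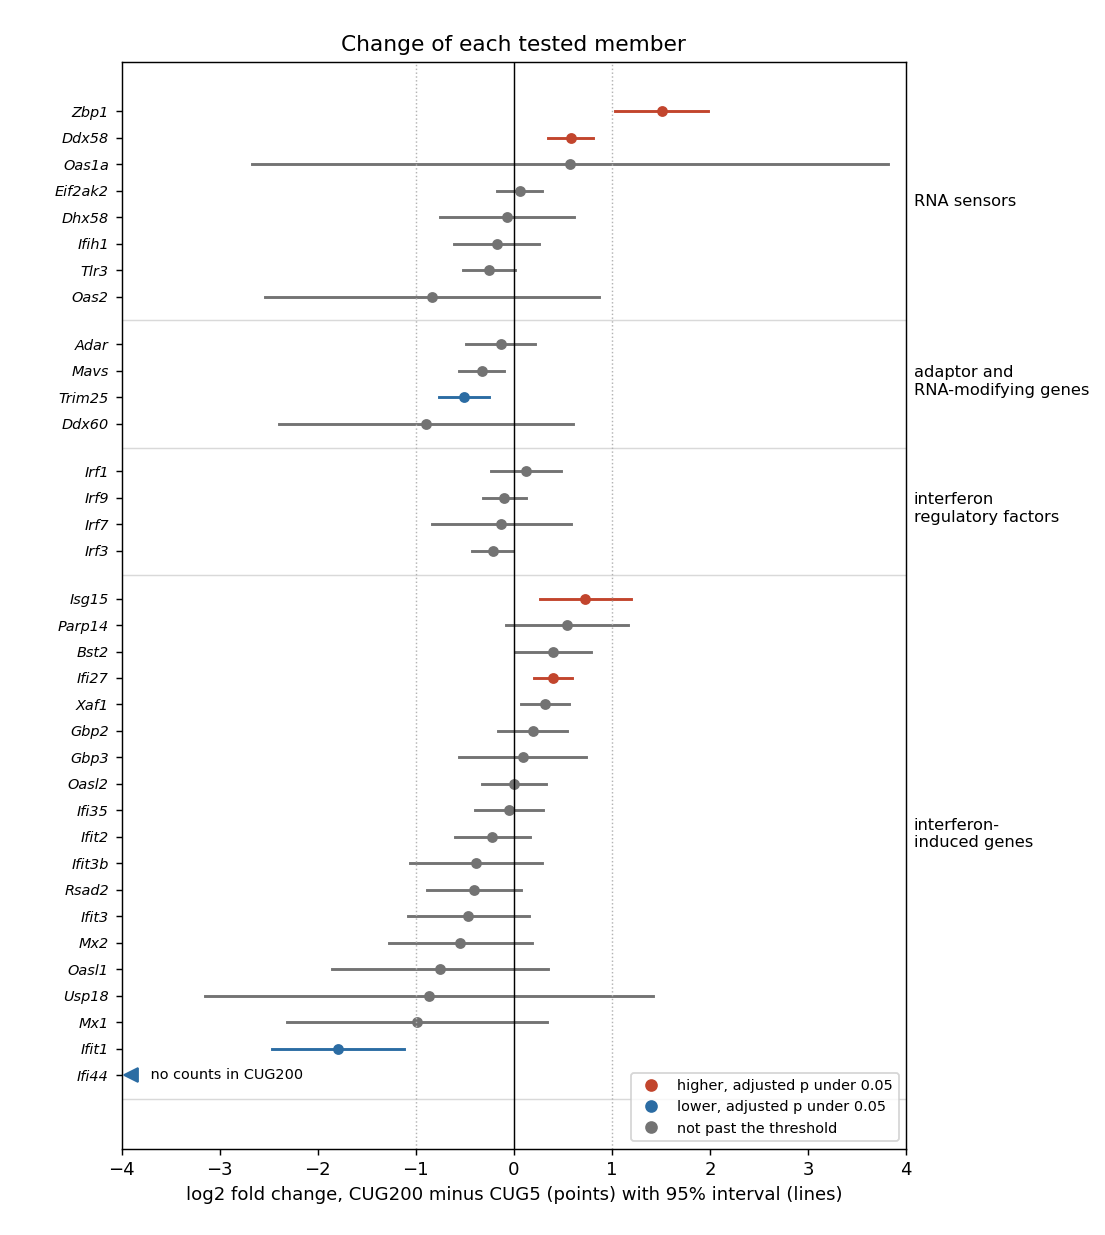
Log2 fold change (CUG200 minus CUG5) of the 35 tested members by role, with 95% intervals from edgeR; dotted lines mark a log2 fold change of 1 in either direction. 4 members are drawn as higher and 3 as lower, in 3 of the 4 roles, and *Ifi44*, with no counts in CUG200, is drawn at the edge without an interval.

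The RNA sensors stood at very different levels in these cells. In TPM, which are scaled for transcript length, *Eif2ak2* (PKR) averaged 29.6 TPM over the 6 libraries and *Ddx58* (RIG-I) 19.4 TPM. *Tlr3*, the endosomal receptor of double-stranded RNA, was measured at 3.39 to 6.44 TPM, and *Zbp1*, a sensor of left-handed Z-form RNA, at 1.48 to 2.53 TPM. *Ifih1* (MDA5) lay between 0.887 and 1.28 TPM and *Dhx58* (LGP2), a regulator of both helicases, between 0.556 and 1.43 TPM. The oligoadenylate synthetases, which activate RNase L on binding double-stranded RNA, were close to the limit of detection. *Oas1a* had 0, 27, and 0 counts in CUG5 and 10, 12, and 22 counts in CUG200. *Oas2* had 4 to 12 counts in all 6 libraries, and *Oas3* had 13, 0, and 4 counts against 0, 4, and 0. Thus PKR and RIG-I were the most abundant sensors, and the 3 *Oas* genes were each represented by a few fragments at most per library.

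**Figure D2:**
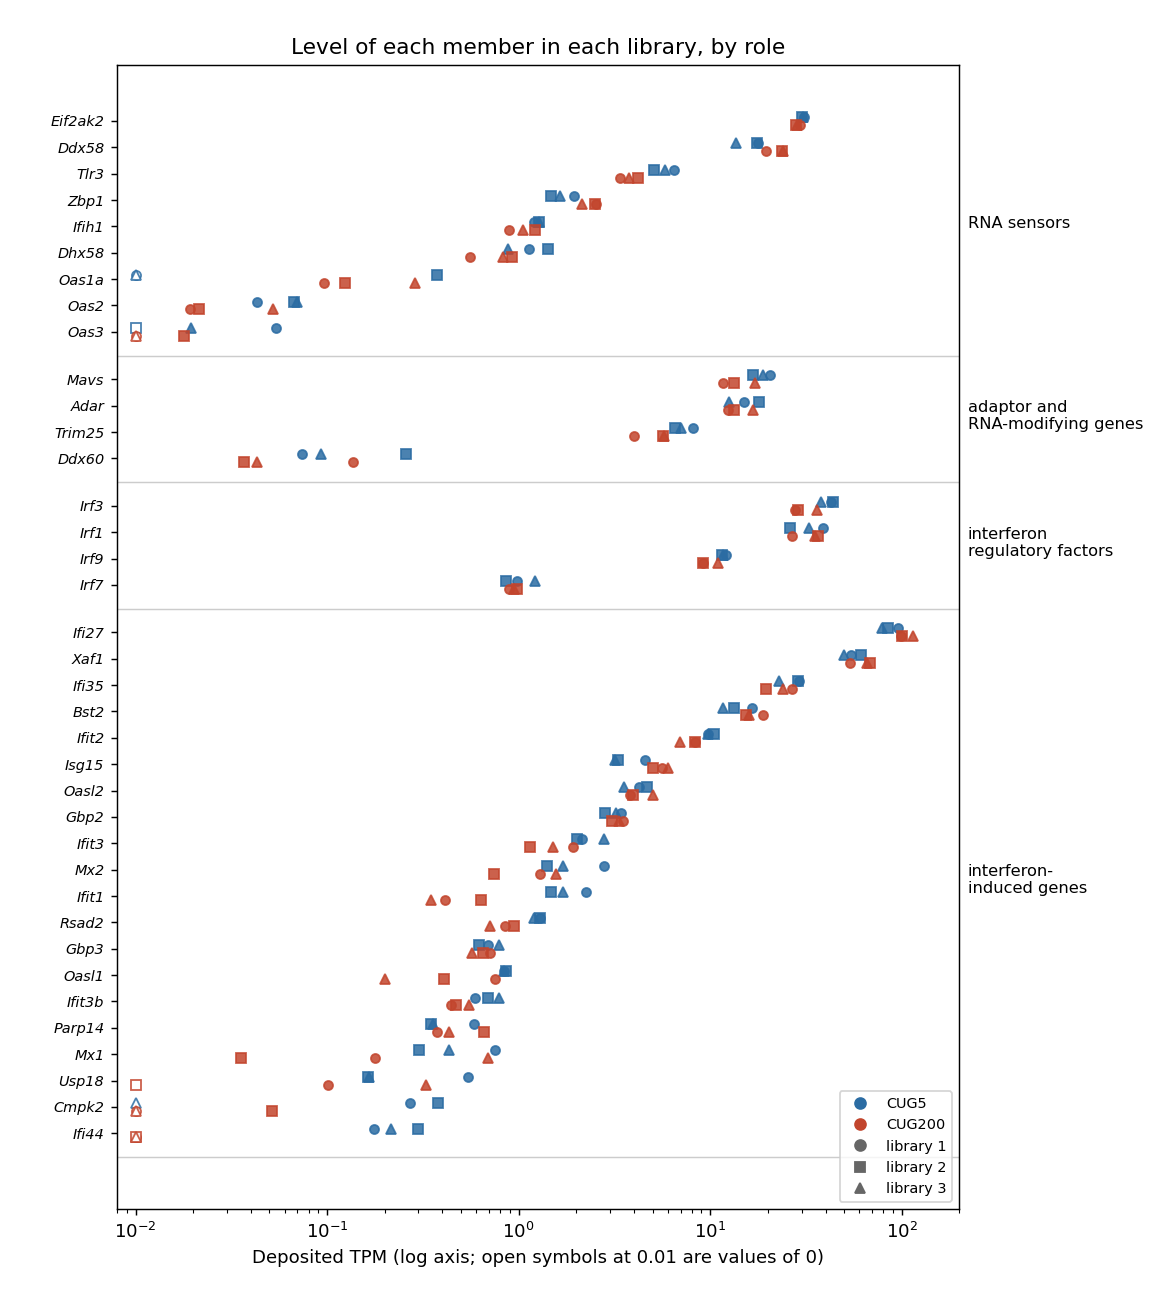
Deposited TPM (log axis) of each of the 37 members in each library, by role and sorted by the mean of the 6 libraries; open symbols at 0.01 stand for values of 0. The levels span from under 0.1 TPM for *Oas2* and *Oas3* to 114.5 TPM for *Ifi27*, and in most rows the symbols of both groups lie side by side.

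*Ddx58* (ENSMUSG00000040296, chr4:40203773-40239828) was upregulated in the DM1 group. It had 2772, 2119, and 1982 counts in the CUG5 libraries 1, 2, and 3 and 3476, 3649, and 3017 counts in CUG200. All 3 DM1 libraries were above all 3 normal libraries, at 47.8 ± 3.06 against 31.9 ± 3.20 CPM (counts scaled to the library size; mean ± SD, n = 3). The log2 fold change was 0.58 ± 0.10 (SE) with an adjusted p of 0.00836 by edgeR's quasi-likelihood test. The call held without any 1 of the 6 libraries, with adjusted p between 0.00713 and 0.0432. On the deposited TPM the ratio was 1.38, and limma-trend on log2(TPM + 1) gave an adjusted p of 0.106.

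*Zbp1* (ENSMUSG00000027514, chr2:173206612-173218923) showed the largest fold increase, fitted on counts, among the members that were called. Its counts were 84, 74, and 63 in the normal libraries and 243, 206, and 177 in the DM1 libraries, so the groups lay far apart. The log2 fold change was 1.51 ± 0.21 (SE), or 2.84-fold with a 95% interval of 2.04 to 3.96, and edgeR's quasi-likelihood test gave an adjusted p of 0.00369. The deposited TPM rose less, from 1.94, 1.48, and 1.65 to 2.53, 2.51, and 2.15. Here the groups were also separate, but the ratio was 1.42, and limma-trend on log2(TPM + 1) gave an adjusted p of 0.196. No other tested member with counts in both groups differed as much between its count and its TPM ratio, and the cause was not tested.

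**Figure D3:**
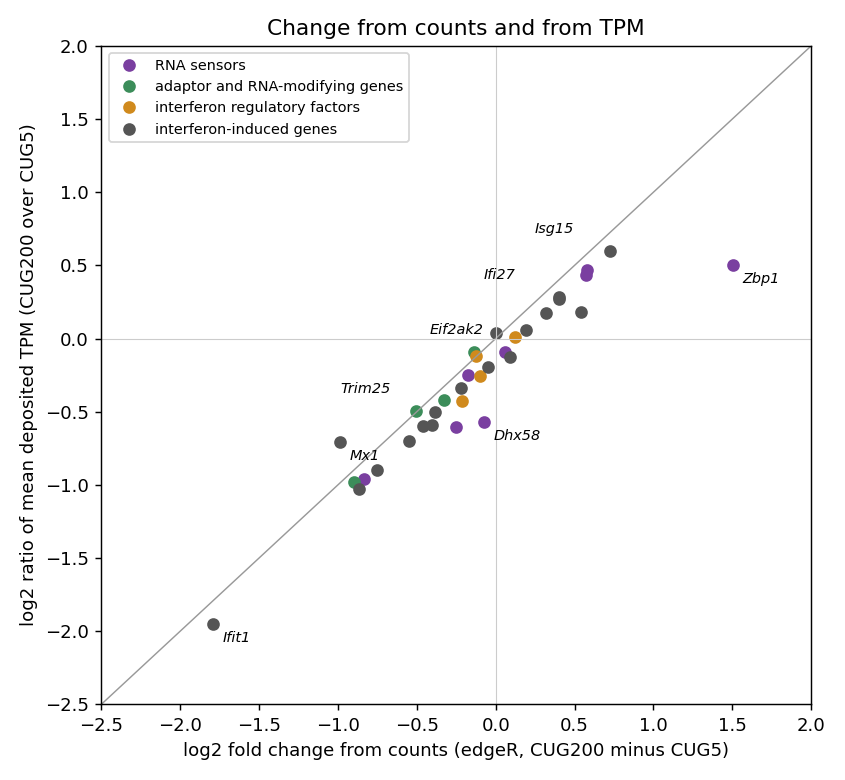
Log2 fold change from counts (horizontal axis) against the log2 ratio of the mean deposited TPM (vertical axis) for the 34 tested members with TPM above 0 in both groups, coloured by role; the line marks equal values. Most members lie on or a little below the line, *Zbp1* lies furthest from it, and *Ifit1* is the lowest point on both axes.

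The other sensors did not pass the test. *Eif2ak2*, the gene of PKR (chr17:78852564-78882573), had 5733, 4043, and 4527 counts in CUG5 and 5714, 5053, and 3973 counts in CUG200. The groups overlapped, the log2 fold change was 0.06 ± 0.10 (SE), and the adjusted p was 0.738 (edgeR's quasi-likelihood test). The 95% interval of the fold change of the PKR mRNA ran from 0.891 to 1.22. *Tlr3* was lower in all 3 DM1 libraries, with 648, 574, and 585 counts against 855, 658, and 670 counts. In CPM its groups did not overlap, but with a log2 fold change of -0.25 ± 0.12 (SE) it missed the threshold (adjusted p = 0.178, edgeR). *Ifih1* and *Dhx58* had log2 fold changes of -0.18 ± 0.19 and -0.07 ± 0.30 (SE), with overlapping groups. For *Oas1a* and *Oas2* the 95% intervals reached from -2.67 to 3.81 and from -2.54 to 0.86 on the log2 scale, so a difference was not detectable at this depth. *Oas1a* has near-identical copies between which reads could be split, and the sum of 8 *Oas1* genes was 4, 27, and 5 counts against 18, 20, and 30 counts (adjusted p = 0.563, edgeR). *Dhx58* shares 4.31% of its exonic bases with its antisense gene, which had 161 counts in all 6 libraries against 397 for *Dhx58*, and without strand their reads cannot be told apart.

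Among the adaptor and RNA-modifying genes, *Trim25* was downregulated. TRIM25 is a ubiquitin ligase that assists RIG-I signalling, and its gene (ENSMUSG00000000275) lies at chr11:88999376-89020293. It had 1775, 1271, and 1381 counts in CUG5 and 955, 1122, and 981 counts in CUG200, with no overlap. The log2 fold change was -0.51 ± 0.11 (SE), a 1.42-fold lower level, with an adjusted p of 0.0185 by edgeR's quasi-likelihood test. The adjusted p was 0.0697, 0.0666, and 0.0663 without the normal library 1, 2, or 3, and 0.144 with limma-trend on log2(TPM + 1), so the call was lost in these cases. *Mavs*, the adaptor of both helicases, had 2858, 1904, and 2466 counts against 1827, 1873, and 1943 counts. Its groups were separate in CPM, and its log2 fold change of -0.32 ± 0.10 (SE) stood just outside the threshold (adjusted p = 0.0610, edgeR). The adjusted p was 0.0479 with DESeq2 and 0.0259 without the DM1 library 3, so both of these called *Mavs* lower. *Adar*, which edits adenosines in double-stranded RNA, had 2035 to 2678 counts in all 6 libraries and a log2 fold change of -0.14 ± 0.15 (SE). *Ddx60*, a helicase linked to RIG-I, had 11 to 59 counts, and its 95% interval on the log2 scale ran from -2.39 to 0.60. All 4 fitted values in this role were negative, and 1 of the 4 passed the test, against 15.9% of all genes.

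None of the 4 interferon regulatory factors passed edgeR's test, against 15.9% of all genes, and 1 had an unadjusted p under 0.05. DESeq2 also called 0, against 23.1% of the genes to which it gave an adjusted p. *Irf3*, which is expressed before infection and is activated by phosphorylation, averaged 36.1 TPM, and *Irf1* 32.8 TPM. *Irf9*, the DNA-binding subunit of the complex that binds ISREs, had 9.185 to 12.02 TPM, and *Irf7*, which interferon itself induces in most cells, had 0.863 to 1.22 TPM. The log2 fold changes were -0.22 ± 0.09 for *Irf3*, 0.12 ± 0.16 for *Irf1*, -0.10 ± 0.10 for *Irf9*, and -0.13 ± 0.31 (SE) for *Irf7*. The smallest adjusted p among them was 0.154 for *Irf3* (edgeR), whose groups did not overlap in CPM. The groups of *Irf9* did not overlap in CPM either, with lower values in the DM1 group. The *Irf7* counts were 63, 71, and 72 in the normal libraries and 80, 68, and 43 in the DM1 libraries, with overlapping groups. *Irf7* also shares 45 exonic bases with *Phrf1* on the opposite strand, which had 11972 counts in all 6 libraries against 397 for *Irf7*.

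Of the 19 interferon-induced genes that were tested, 2 were called higher, 2 were called lower, and 15 did not pass. The share called was 21.1%, against 15.9% of all genes. It includes *Ifi44*, which entered the test only through its counts in the normal group. *Ifi27* (ENSMUSG00000064215, chr12:103434211-103440239), a small mitochondrial protein gene, was the most abundant member in TPM. It had 3528, 2618, and 2722 counts in CUG5 and 4337, 3801, and 3428 counts in CUG200. In CPM the DM1 libraries were all higher, at 54.4 ± 3.51 against 41.2 ± 1.96 (mean ± SD, n = 3). The log2 fold change was 0.40 ± 0.09 (SE), with an adjusted p of 0.0163 by edgeR's quasi-likelihood test. The call was lost without the normal library 1, 2, or 3 or the DM1 library 2 (adjusted p of 0.0586, 0.0544, 0.0817, and 0.0610). It was also lost with limma-trend on log2(TPM + 1) (adjusted p = 0.189). Summed with its relatives *Ifi27l2a* and *Ifi27l2b*, between which reads could be shared, the log2 fold change was 0.37 with an adjusted p of 0.0231 (edgeR).

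*Isg15* (ENSMUSG00000035692, chr4:156199455-156200796), which encodes a ubiquitin-like modifier, had 152, 87, and 97 counts in CUG5 and 209, 168, and 165 counts in CUG200. The groups were separate, and the log2 fold change was 0.73 ± 0.20 (SE), or 1.66-fold, with an adjusted p of 0.0434 by edgeR's quasi-likelihood test. This was the weakest of the 7 calls and held in 6 of the 17 alternative settings. It was lost, among others, without any 1 of the 6 libraries, with adjusted p between 0.0627 and 0.144, and with library sizes alone, without a filter, and on TPM (adjusted p of 0.0638, 0.0616, and 0.0993 for log2(TPM + 1)).

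*Ifit1* (ENSMUSG00000034459, chr19:34640871-34650009) was downregulated in the DM1 group. IFIT1 binds viral RNA that lacks the methylated cap of host mRNA. It had 280, 146, and 197 counts in CUG5 but 58, 81, and 36 counts in CUG200. The highest DM1 library was below the lowest normal library. The log2 fold change was -1.79 ± 0.30 (SE), a 3.46-fold lower level, with an adjusted p of 0.00710 by edgeR's quasi-likelihood test. The call held in all 17 alternative settings, with adjusted p of at most 0.0355, and the TPM ratio was 0.259. The neighbouring genes of the family on chromosome 19 did not pass the test. *Ifit2* had 1632, 1383, and 1468 counts against 1545, 1422, and 883 counts, with a log2 fold change of -0.22 ± 0.17 (SE). The near-identical pair *Ifit3* and *Ifit3b*, whose reads the counting could split, had log2 fold changes of -0.46 ± 0.27 and -0.39 ± 0.30 (SE). In CPM the groups overlapped for *Ifit3* and were separate for *Ifit3b*. The sum of the pair was 232, 184, and 280 counts in CUG5 and 223, 141, and 146 counts in CUG200, with an adjusted p of 0.234 (edgeR). Whether *Ifit1* differed from the rest of its family was not tested.

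*Ifi44* (ENSMUSG00000028037, chr3:151730922-151749960), a cytoplasmic protein gene induced by interferon, was detected in the normal group only. It had 25, 36, and 28 counts in CUG5 and 0 counts in each DM1 library. Against a floor of 12 counts (3 fragments) over the 3 DM1 libraries, the level was at least 7.57-fold lower in the DM1 group. It passed the filter on low counts only through the normal group, was left out of the test at a minimum of 10 counts in every library, and had no adjusted p with DESeq2, so its p-values are given as a description. The adjusted p was 0.00811 by edgeR's quasi-likelihood test and between 0.00909 and 0.0410 without any 1 library. With limma-trend it was 0.0518 on log2(TPM + 1) and 0.0226 on log2(TPM + 0.1). The 89 counts of the normal group correspond to few fragments, and *Ifi44* averaged 0.23 TPM there.

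**Figure D4:**
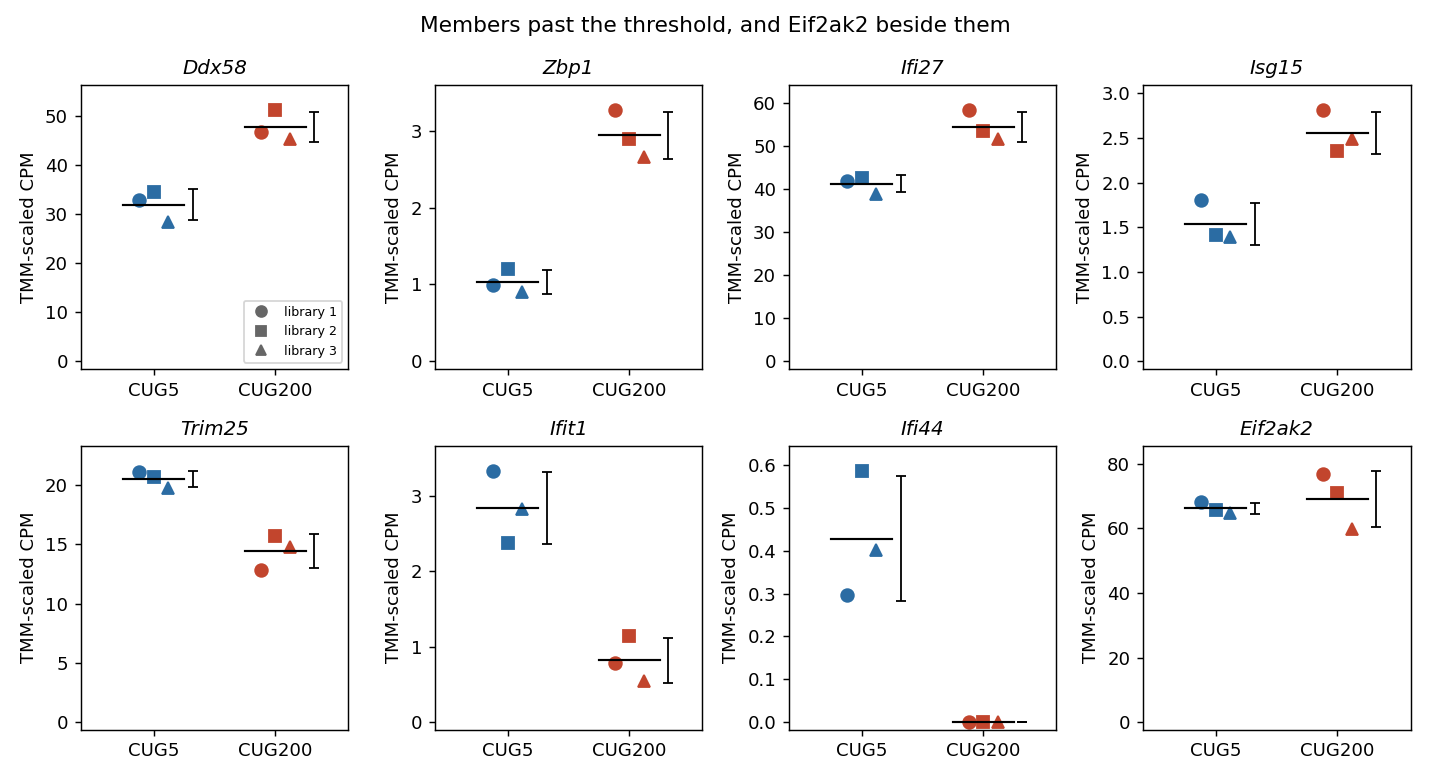
Library-scaled counts (CPM, TMM scaling) in each library for the 7 members past the threshold and for *Eif2ak2*; horizontal lines are group means and bars are SD of 3 libraries. *Ddx58*, *Zbp1*, *Ifi27*, and *Isg15* are higher and *Trim25*, *Ifit1*, and *Ifi44* lower in every CUG200 library than in every CUG5 library, while the *Eif2ak2* values overlap.

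The interferon-induced genes that were tested but not called lay on both sides of 0, more of them below it. They ranged from a log2 fold change of -0.99 for *Mx1* to 0.54 for *Parp14*. *Xaf1*, a pro-apoptotic factor, had 2562, 2312, and 2199 counts against 2891, 3204, and 2691 counts, with separate groups, a log2 fold change of 0.32 ± 0.11 (SE), and an adjusted p of 0.0810 (edgeR). *Bst2* (tetherin), which holds budding virions at the cell surface, had a log2 fold change of 0.40 ± 0.17 (SE) and an adjusted p of 0.149 (edgeR). Its groups only just did not overlap in CPM, with the highest normal and the lowest DM1 library both at 7.34. *Ifi35* and *Oasl2* lay closest to 0, at -0.05 ± 0.15 and 0.00452 ± 0.144 (SE). *Rsad2* (viperin), which makes a chain-terminating nucleotide, had 229, 202, and 219 counts against 188, 187, and 116 counts. In CPM its groups were separate, and its log2 fold change was -0.41 ± 0.21 (SE; adjusted p = 0.234, edgeR). The dynamin-like GTPases *Mx1* and *Mx2* had log2 fold changes of -0.99 ± 0.58 and -0.55 ± 0.32 (SE), and *Oasl1* of -0.75 ± 0.48. In CPM the groups were separate for *Mx1* and overlapped for *Mx2* and *Oasl1*. Summed with each other as related copies, the *Mx* pair had an adjusted p of 0.183 and the *Oasl* pair of 0.721 (edgeR). *Gbp2*, *Gbp3*, and *Parp14* were positive at 0.19 ± 0.15, 0.09 ± 0.29, and 0.54 ± 0.27 (SE). *Usp18*, which removes ISG15 from proteins and dampens the receptor, had 31, 11, and 11 counts against 10, 0, and 17 counts. *Cmpk2*, a mitochondrial nucleotide kinase, had 42, 21, and 0 counts against 0, 8, and 0 counts and was not tested.

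Set side by side, the median log2 fold change was -0.00472 over the 8 tested sensors and -0.22 over the 19 tested interferon-induced genes, against 0.02 over all genes. With *Ifi44* placed at its bound, the latter median was again -0.22. Among the sensors, 4 fitted values were positive and 4 negative. Among the interferon-induced genes, 8 were positive and 11 negative. In summed TPM the sensors held 53.9 to 59.4 TPM in the normal libraries and 56.5 to 60.9 TPM in the DM1 libraries, with overlapping ranges. The interferon-induced genes held 193.5 to 230.3 TPM against 226.7 to 248.3 TPM, again with overlapping ranges. In this sum *Ifi27* and *Xaf1* have the largest parts. With *Oas1a*, *Oas2*, and *Oas3* counted among the interferon-induced genes, both medians kept these values. The median of the interferon-induced genes was nearer to 0 with at least 10 counts in every library (-0.0165), with counts divided by 4 (-0.0392), and with related copies summed (-0.0822). It was further from 0 without the DM1 library 1 (-0.344), on log2(TPM + 0.1) (-0.341), without a filter (-0.306), and with DESeq2 (-0.299). Whether the roles differed was not tested, since the members are not replicates.

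The interferon genes themselves had few or no counts. Of 21 interferon ligand genes, 18, including *Ifnb1*, had no counts in any library. The other three were *Ifnz* with 6 to 24 counts, *Ifng* with 0 to 20 counts, and *Ifne* with 0 to 8 counts per library. Only *Ifnz* was tested, and it did not pass (adjusted p = 0.515, edgeR's quasi-likelihood test). These counts correspond to at most a few fragments per library, so a difference in interferon RNA was not detectable at this depth.

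The receptor and its signalling chain were expressed. Of 17 receptor and JAK-STAT genes, 2 were called higher and 3 lower, 5 in all (29.4%), against 15.9% of all genes. *Ifnar1* and *Ifnar2*, the chains of the type I receptor, did not pass, with log2 fold changes of 0.14 ± 0.08 and 0.01 ± 0.08 (SE). *Stat2* had a log2 fold change of 0.14 ± 0.11 (SE) and did not pass. *Jak1*, with 19106, 13167, and 15125 counts in CUG5 and 12813, 11901, and 11798 counts in CUG200, was lower by a log2 fold change of -0.35 ± 0.08 (SE), with an adjusted p of 0.0186 by edgeR's quasi-likelihood test. *Stat3* and *Ptpn11* were also lower, by log2 fold changes of -0.33 and -0.36. The kinase gene *Tyk2* and the inhibitor gene *Socs3* were higher, by 0.39 and 0.59. With 1 library left out at a time, the call of *Socs3* held in 6 of 6 fits, that of *Ptpn11* in 3, that of *Jak1* in 2, and those of *Tyk2* and *Stat3* in 1 each, with adjusted p of up to 0.136 and 0.154 (edgeR).

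Of 34 genes of the RNA and DNA sensing cascade found in the table, 28 were tested, and edgeR called none higher and 2 lower (7.14%), against 15.9% of all genes. At an unadjusted p under 0.05 there were 7 genes, 1 of them higher, but the share of all genes at that threshold was not computed. DESeq2 called 4, 1 of them higher, against 23.1% of the genes to which it gave an adjusted p. The lower genes were *Traf6*, a ubiquitin ligase, with a log2 fold change of -0.45 ± 0.08 (SE) and an adjusted p of 0.00903 (edgeR), and *Dhx33*, a helicase, with -0.46 ± 0.13 (SE) and 0.0437. With 1 library left out at a time, the call of *Traf6* held in 5 of 6 fits and that of *Dhx33* in 1. *Tbk1*, the kinase of IRF3, had a log2 fold change of -0.04 ± 0.09 (SE), and the DNA sensor *Cgas* had -0.42 ± 0.19 (SE) with an adjusted p of 0.163.

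Of 70 other interferon-stimulated genes, 59 were tested, 4 were called higher, and 3 lower (11.9%), against 15.9% of all genes, with a median log2 fold change of 0.07 against 0.02. At an unadjusted p under 0.05 there were 18 genes, 13 of them higher, but the share of all genes at that threshold was not computed. These counts therefore show no tilt of the list. DESeq2 called 10, 7 of them higher, against 23.1% of the genes to which it gave an adjusted p. The higher genes were *B2m*, the light chain of MHC class I, *Ifitm3*, which blocks viral entry, *Ifi203*, and *Helz2*. *B2m* had 74549, 71323, and 75429 counts in CUG5 and 107269, 111557, and 85788 counts in CUG200, with a log2 fold change of 0.46 ± 0.12 (SE). *Ifitm3* had a log2 fold change of 0.47 ± 0.10 (SE). The lower genes were *H2-K1*, *Ddx24*, and *Gbp9*. *H2-K1*, a heavy chain of the same MHC class I complex as *B2m*, had 3152, 2554, and 2780 counts against 2216, 1845, and 2171 counts, with a log2 fold change of -0.43 ± 0.11 (SE). With 1 library left out at a time, *Ddx24* was called in 4 of 6 fits, *Ifitm3* in 3, *Ifi203* and *Helz2* in 2 each, and *B2m*, *H2-K1*, and *Gbp9* in 1 each. Across the pathway lists, 14 of the 104 tested genes were called (13.5%, against 15.9% of all genes), 6 higher and 8 lower. With limma-trend on TPM only 2 of the pathway genes were called, and without the normal library 1, 2, or 3 or the DM1 library 2 there were 4, 5, 1, and 3. The share of all genes called was likewise between 5.18% and 7.25% in these 5 fits. DESeq2 called 19 of the pathway genes, 10 of them higher, and 23.1% of the genes to which it gave an adjusted p.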

How the data were processed

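Total RNA of CUG5 and CUG200 C2C12 cells was sequenced in 3 libraries per group, grouped by the sample labels. The authors trimmed the reads with Trim Galore, aligned them to GRCm38 with HISAT2, and quantified genes with StringTie. They deposited counts per gene without normalization and, for each library, the coverage (signal) and TPM of every gene, which StringTie scaled for length and library size; the deposited FPKM were not used here. The library totals were 61707889 to 80957325 counts. Coverage times length divided by 75 gave the deposited count within 1 count for over 99% of genes with 1 transcript, so counts are not reads, and tests on them can overstate the precision of low genes. Strand was not given in the sources used here. *Adar* and *Ifi35* share 16.8% of their exonic bases with genes of the opposite strand. All 6 count columns were used, and no 2 libraries agreed within sampling noise (chi-square per degree of freedom of 10.8 to 40.6 within groups).

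The members were taken by gene symbol and joined by gene ID. The members and lists were chosen with earlier results of these data known. 1 gene of the pathway lists is not reported here. Genes were filtered with filterByExpr (minimum count 10), scaled by TMM, and tested with edgeR 4.0.16 (robust quasi-likelihood test, Benjamini-Hochberg adjustment over 19005 genes) in R 4.3.3. All 37 members are named, and of each pathway list up to 5 called genes with the smallest p-values in each direction; *Ifnar1*, *Ifnar2*, *Stat2*, *Tbk1*, *Cgas*, and the interferon ligands were named after their values were seen. Alternatives were DESeq2 1.42.0, its size factors, library sizes alone, 2 other filters, no robust estimation, a replicate block, counts divided by 4 and rounded up, limma-trend 3.58.1 on log2(TPM + 1) and log2(TPM + 0.1), related copies summed, the 3 *Oas* genes moved between roles, and each library left out. The related copies were those of *Ifit3*, *Oas1*, *Mx*, *Oasl*, *Ifi27*, and the *Gbp2* and *Gbp3* locus. For the pathway lists the alternatives were chosen after seeing the data. The tests were tested on simulated data. Figures were drawn with matplotlib 3.10.9. Intervals and floors from counts cover counting error only where no replicate spread is given.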

Additional observations from a re-analysis of the deposited data

How the results depend on the processing

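Of 581 adjusted p-values of single members over 17 alternative settings, 551 stayed on their side of the threshold, 27 lost their call, and 3 gained one (2 of *Mavs*, 1 of *Xaf1*). No called member turned its direction, while the sign turned in some setting for 9 of the 28 members that were not called. With DESeq2 *Ifi44* had no adjusted p, and it failed the filters of at least 10 counts in every library and of counts divided by 4. On log2(TPM + 1), limma-trend called 0 members higher and 1 lower, 0 passed the study's cutoffs, and 2 pathway genes were called. On log2(TPM + 0.1) it called 0 members higher, 2 lower (*Ifi44* and *Ifit1*), and 2 pathway genes. The medians on log2(TPM + 0.1) were -0.17 for the sensors and -0.34 for the interferon-induced genes. That scale also moved the median of all genes from 0.02 to -0.09. The median of the interferon-induced genes was -0.0165 with at least 10 counts in every library, which left out low genes such as *Ifi44*, -0.0392 with counts divided by 4, and -0.0822 with related copies summed. The cause of the other shifts was not tested. Leaving out 1 library at a time gave 2 to 3 members called higher, 2 to 4 called lower, 3 past the cutoffs, medians of -0.111 to 0.0865 for the sensors and -0.34 to -0.15 for the interferon-induced genes, and 1 to 18 pathway genes, while the share of all genes called ranged from 5.18% to 19.2%. Libraries with the same number correlated at 0.113, 0.0518, and 0.0538 in their deviations, so they share only a number, although every library correlated best with its own number, a hint from the data and not from the design. With the replicate block, 4 members were called higher (*Xaf1* in place of *Isg15*), 3 lower, and 2823 of all genes against 3016 without it. At the few counts per library of *Oas1a*, *Oas2*, and *Usp18*, a difference was not detectable.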
